A study of Mus musculus with 6 samples.

Results

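The endoderm lineage markers described here are 10 genes, Gata4, Gata6, Sox17, Sox7, Cubn, Amn, Dab2, Afp, Ttr and Sparc, picked by symbol as genes known to mark the endoderm of the early mouse embryo. Each of the 10 had 1 entry in the authors' gene table, where 33345 entries remain when each gene symbol is given its entry of highest level. RNA was sequenced from motor neurons (MNs) differentiated from the Hb9 control and A2 SMA mESC lines, 3 samples per genotype, on the FVB/N background. A2 cells carry the genotype SMN2+/+;mSmn-/-, so they lack mouse Smn1 and keep the human SMN2 transgene. Hb9 cells are wildtype for mSmn and carry the same transgene, and both lines carry the HB9:eGFP reporter that was used to sort the cells. Embryoid bodies were exposed to 1 µM retinoic acid (RA) and 1 µM Smoothened agonist over 5 days, and eGFP-positive cells were collected by FACS. Each genotype is represented by 1 mESC line, so genotype and line cannot be told apart. The mESCs had been grown on mouse embryonic fibroblast feeders, which were left to re-attach before the floating mESCs were taken for differentiation.

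Endoderm gives rise to the yolk sac epithelia, the gut, the liver and the pancreas, and it is not a source of spinal MNs. In the blastocyst, GATA and SOX factors set up primitive endoderm, which then forms visceral endoderm, an absorptive epithelium facing the embryo, and parietal endoderm, which lays down a thick basement membrane. Differentiating embryoid bodies often form an outer layer of such cells. A visceral endoderm cell takes up proteins through cubilin and its partner amnionless and secretes the plasma proteins that the liver makes later.

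The expression level is given in FPKM, which counts sequenced fragments per length of exon and per depth of the library, with 1 pooled value per genotype. Control MNs here means those of the Hb9 line and SMA MNs those of the A2 line. The values of single samples were not analysed here and the authors' own test results were not used. No spread between replicates, no confidence interval and no test is therefore given for any difference below. The number of reads behind an FPKM value is unknown. Ratios are log2 ratios of the FPKM in SMA MNs over that in control MNs, and a gene was counted when it reached at least 1 FPKM in either genotype and was above 0 FPKM in both. In bulk RNA, fewer cells of a type and less RNA per cell cannot be told apart.

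The identity of the samples was checked on 2 genes. Smn1 was at 137 FPKM in control MNs and 5.26 FPKM in SMA MNs, and Mnx1, which encodes Hb9, was at 41.2 and 44.2 FPKM. Among the MN markers above the filter, only Mnx1 was at a like level in both genotypes. The name SMA MNs is the label of the samples, and these markers do not settle it. Of 8 MN markers above the filter, 7 were at least 2-fold lower in SMA MNs, beside 22.4% of all genes above the filter. In SMA MNs Isl1 was at 5.95 FPKM (108 FPKM in control MNs), Olig2 at 0.704 FPKM (32.1 FPKM) and Neurog2 at 0.225 FPKM (19.9 FPKM). All 10 pluripotency markers were at least 2-fold higher, beside 6.83% of all genes above the filter. Pou5f1 was at 98.3 FPKM in control MNs and 775 FPKM in SMA MNs, Utf1 at 59.8 and 357 FPKM (status FAIL) and Dppa5a, the lowest ratio of the list, at 23.3 and 52.2 FPKM. Over the 14926 genes above the filter, the median log2 ratio was -0.29 (quartiles -0.89 and 0.19), so values relative to the median gene are given beside the plain ones.

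The 10 endoderm markers did not lie on one side as a group. Of the 9 above the filter, 4 had a log2 ratio above 0 and 5 below 0, with a median of -0.18, and relative to the median gene 5 were above and 4 below, with a median of 0.11. At a limit of 2-fold, 1 gene (Amn) was higher in SMA MNs and 2 (Sox17 and Sparc) were lower. Among all genes above the filter, 6.83% were at least 2-fold higher and 22.4% at least 2-fold lower, so 1 and 2 of 9 lie near what genes in general showed. Relative to the median gene, Amn was still past 2-fold, whereas Sox17 (log2 ratio -0.82) and Sparc (-0.73) were not, and the shares of all genes were 10.4% higher and 16.5% lower. The remaining marker, Afp, was under 1 FPKM in both genotypes.

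**Figure D1:**
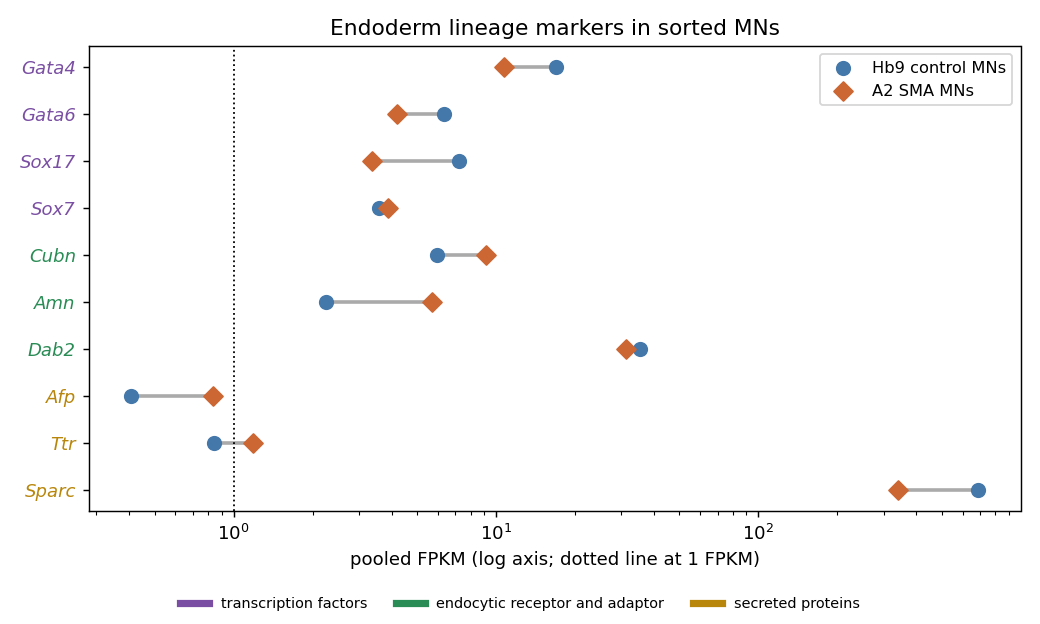
Pooled FPKM of each endoderm marker in control MNs (circles) and SMA MNs (diamonds) on a log axis, with gene names coloured by role and a dotted line at 1 FPKM. Sparc lies far above the rest at 688 and 340 FPKM, Afp lies under 1 FPKM in both genotypes, and the widest gap belongs to Amn.

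The markers spanned a wide range of levels within each genotype. In control MNs the order from high to low was Sparc, Dab2, Gata4, Sox17, Gata6, Cubn, Sox7, Amn, Ttr and Afp, and the highest was 1690 times the lowest. In SMA MNs the order was Sparc, Dab2, Gata4, Cubn, Amn, Gata6, Sox7, Sox17, Ttr and Afp, with a range of 409 times. Cubn and Amn thus ranked above Gata6, and Sox17 ranked below Sox7. Without replicate values it cannot be said which neighbours in these orders differ beyond their spread.

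The promoters of the receptor subunits Cubn and Amn, of their adaptor Dab2 and of the matrix gene Sparc are shown because Amn had the highest ratio, Cubn and Dab2 act with it, and Sparc had the highest level. They come from RefSeq on build GRCm38.p6, which is not the build of the expression table, and each runs from 250 bases before to 50 bases after an annotated start, 5′ to 3′ on the gene's strand. The table of promoters held 5 of the 10 markers. Capitals mark GATAA, the core bound by GATA factors, and GTTAAT, a half-site of the endoderm factor family HNF1, searched on both strands. The matches do not overlap each other.

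Cubn, chr2:13491827-13492126, minus strand: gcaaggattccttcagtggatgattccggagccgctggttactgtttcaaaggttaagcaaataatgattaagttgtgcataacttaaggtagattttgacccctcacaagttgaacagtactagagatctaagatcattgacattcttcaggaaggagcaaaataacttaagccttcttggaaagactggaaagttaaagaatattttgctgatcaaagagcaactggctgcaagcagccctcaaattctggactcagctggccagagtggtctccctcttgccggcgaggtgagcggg

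Amn, chr12:111270846-111271145, plus strand: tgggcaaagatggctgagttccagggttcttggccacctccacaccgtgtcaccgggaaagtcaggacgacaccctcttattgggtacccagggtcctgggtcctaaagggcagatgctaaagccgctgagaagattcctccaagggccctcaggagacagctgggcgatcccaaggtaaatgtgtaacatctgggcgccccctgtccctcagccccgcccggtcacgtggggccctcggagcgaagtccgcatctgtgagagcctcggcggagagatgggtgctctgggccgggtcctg

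Dab2, chr15:6299539-6299838, plus strand: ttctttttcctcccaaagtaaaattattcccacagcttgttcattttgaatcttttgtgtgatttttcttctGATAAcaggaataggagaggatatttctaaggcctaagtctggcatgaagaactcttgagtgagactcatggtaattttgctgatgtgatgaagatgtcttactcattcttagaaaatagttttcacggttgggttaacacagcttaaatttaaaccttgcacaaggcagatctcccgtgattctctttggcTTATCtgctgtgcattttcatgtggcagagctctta

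Sparc, chr11:55420031-55420330, minus strand: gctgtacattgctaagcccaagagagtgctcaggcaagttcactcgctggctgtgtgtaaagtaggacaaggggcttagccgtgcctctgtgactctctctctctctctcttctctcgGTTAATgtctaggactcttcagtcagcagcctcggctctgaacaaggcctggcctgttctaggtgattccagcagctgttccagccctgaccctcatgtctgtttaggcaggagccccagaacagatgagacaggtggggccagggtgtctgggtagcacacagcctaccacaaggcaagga

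GATAA was found 2 times in this Dab2 promoter, once on each strand, and in none of the other promoters of the markers, including a second Dab2 start. It occurs in 25.4% of 32851 promoters of this length. GTTAAT was found in the Sparc promoter, in that of Afp and at the second Dab2 start, against 7.1% of all promoters. Neither motif lies in the windows of Cubn and Amn, whose GC content was 44.3% and 62.3%. A match of letters is a description and not a binding site.

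Among the transcription factors, 3 of 4 were lower in SMA MNs, and relative to the median gene the same 3 were lower, while 65.9% of all genes above the filter had a ratio below 0. Gata4, a zinc finger factor that activates visceral and parietal endoderm genes, was at 16.9 FPKM in control MNs and 10.7 FPKM in SMA MNs. Its log2 ratio was -0.66, a 1.58-fold difference. The authors' table marks the Gata4 entry (chromosome 14, 63817759 to 63890529 of NCBI m37) with the status FAIL, which is the only such entry among the markers and means that no comparison was completed for it. Its 2 FPKM values carry that limit.

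Gata6, the related factor that acts earliest in primitive endoderm, was at 6.31 FPKM in control MNs and 4.19 FPKM in SMA MNs. The log2 ratio was -0.59, close to that of Gata4, and Gata4 stood 2.67 times above Gata6 in control MNs and 2.54 times above it in SMA MNs. The GATA pair was therefore lower by a like amount, and 32.5% and 35.1% of all genes had a lower ratio than Gata4 and Gata6. The Gata6 locus on chromosome 18 (11049085 to 11085633) also holds 1010001N08Rik, at 0.797 FPKM in control MNs and 0.565 FPKM in SMA MNs. The library kit is not stated to keep strand, so reads of overlapping genes cannot be fully told apart.

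Sox17, an HMG box factor of primitive and definitive endoderm, was at 7.22 FPKM in control MNs and 3.36 FPKM in SMA MNs. Its log2 ratio of -1.11 was the lowest of the markers, and 19.9% of all genes had a lower one. Sox7, its close relative in the SoxF family and a marker of parietal endoderm, was at 3.57 FPKM in control MNs and 3.89 FPKM in SMA MNs, a log2 ratio of 0.13. The levels of the SoxF pair thus changed order, with Sox17 at 2.02 times the level of Sox7 in control MNs and at 0.862 times in SMA MNs. Sox17 lies on chromosome 1 from 4481009 to 4486494 and Sox7 on chromosome 14 from 64562511 to 64569569.

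Of 7 other genes of these families and their cofactors, 6 had an entry and 4 passed the filter, of which 2 were at least 2-fold higher and 2 at least 2-fold lower, with the same counts relative to the median gene. Of all genes 6.83% were that much higher and 22.4% that much lower (10.4% and 16.5% relative to the median gene). Gata2, a factor of ventral interneurons and blood progenitors, was at 20.7 FPKM in control MNs and 4.0 FPKM in SMA MNs, and Gata3 was at 15.8 and 4.86 FPKM in an entry shared with 9230102O04Rik. Gata1, a factor of red blood cells, had 0.674 FPKM in control MNs and 2.7 FPKM in SMA MNs. Sox18, the remaining SoxF gene, had 0.341 and 1.13 FPKM, and Gata5 and the GATA cofactor gene Zfpm2 stayed under 1 FPKM in both genotypes, at 0.074 and 0.123 FPKM and at 0.744 and 0.183 FPKM, these 3 genes being chosen after their values were seen.

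The markers of protein uptake held the highest ratio of the 10. Amn encodes amnionless, the membrane-spanning partner that brings cubilin to the cell surface, and was at 2.25 FPKM in control MNs and 5.68 FPKM in SMA MNs. The log2 ratio was 1.34, a 2.53-fold difference, and 95.6% of all genes had a lower ratio. Among genes with a mean under 5 FPKM, the band that holds Amn, 14.2% were at least 2-fold higher in SMA MNs. Amn lies on chromosome 12 from 112509322 to 112514637. The expressed genes nearest to it on each side had ratios below 0, with Traf3 at 22.9 FPKM in control MNs and 11.5 FPKM in SMA MNs and Cdc42bpb at 52.2 and 31.1 FPKM.

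Cubn encodes cubilin, the large extracellular receptor for vitamin B12 bound to intrinsic factor and for many plasma proteins. It was at 5.97 FPKM in control MNs and 9.18 FPKM in SMA MNs, a log2 ratio of 0.62, and was not past the 2-fold limit. With Amn higher by more, Cubn went from 2.66 times the level of Amn in control MNs to 1.62 times in SMA MNs. Cubn lies on chromosome 2 from 13193229 to 13413589, a span it shares with Gm13270, which was at 0.539 and 0.0485 FPKM. Its neighbours were Rsu1, with 65.5 FPKM in control MNs and 60.1 FPKM in SMA MNs, and Trdmt1, with 7.55 and 10.6 FPKM.

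Dab2 encodes the adaptor that links such receptors to clathrin coats. It was at 35.3 FPKM in control MNs and 31.2 FPKM in SMA MNs, with a log2 ratio of -0.18 that became 0.11 relative to the median gene. The adaptor was thus nearly level while both receptor subunits were higher. Dab2 lies on chromosome 15 from 6249788 to 6390712.

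Of the other 16 genes listed for the same uptake route, 15 passed the filter, with a median log2 ratio of -0.19. Relative to the median gene none was past 2-fold in either direction, beside 10.4% higher and 16.5% lower among all genes. By the plain ratio none was at least 2-fold higher and 1 was at least 2-fold lower, beside 6.83% and 22.4% of all genes. The 1 that was lower was Fcgrt, the neonatal Fc receptor, at 12.3 FPKM in control MNs and 5.29 FPKM in SMA MNs. Lrp2, which encodes megalin, the receptor that works beside cubilin, was at 15.1 and 9.45 FPKM with the status FAIL. Lrpap1, the megalin chaperone, was at 113 and 106 FPKM, and Ap2a1 and Ap2b1, subunits of the clathrin adaptor AP-2, were at 157 and 163 FPKM and at 124 and 67.6 FPKM. Folr1, a folate receptor, had the highest ratio of the list at 0.38, with 66.1 FPKM in control MNs and 85.8 FPKM in SMA MNs. Gif, which encodes intrinsic factor and like Lrp2 was chosen after its values were seen, was listed at 0 FPKM in control MNs and had 0.0958 FPKM in SMA MNs.

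**Figure D2:**
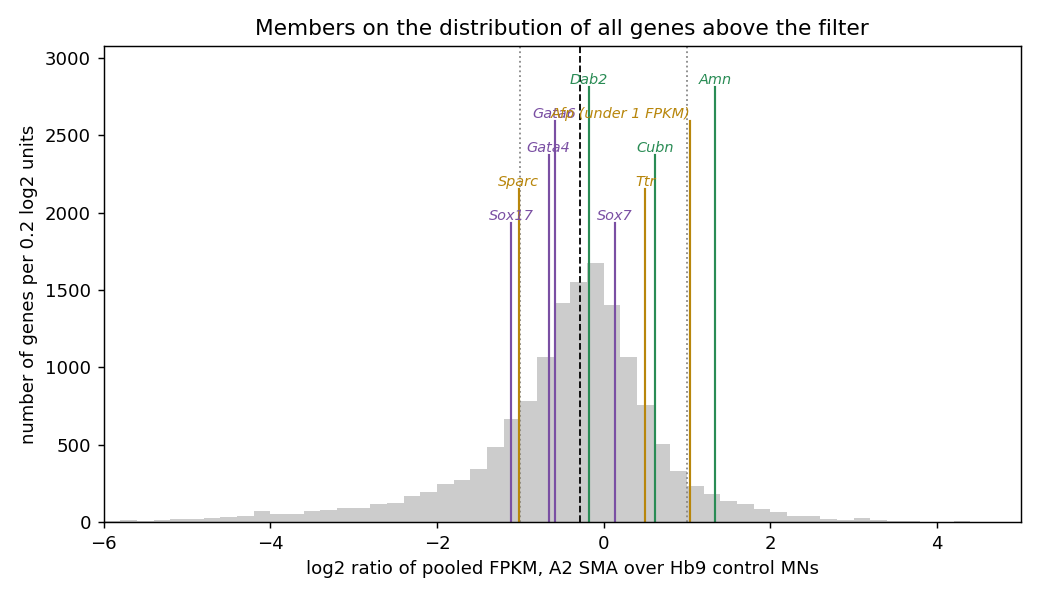
Histogram of the log2 ratios of the 14926 genes above the filter, in bins of 0.2, with a line for each endoderm marker coloured by role as in the plot of FPKM values, a dashed line at the median of all genes and dotted lines at 2-fold. The markers run from -1.11 for Sox17 to 1.34 for Amn with Amn above 95.6% of all genes, and Afp, which was under the filter, is drawn for its value only.

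The secreted proteins were at the extremes of abundance. Sparc encodes a collagen-binding matrix glycoprotein that parietal endoderm makes in large amounts and that many other cells also express. It was at 688 FPKM in control MNs and 340 FPKM in SMA MNs, a 2.02-fold difference (log2 ratio -1.02). These levels lay above those of 99.8% and 99.2% of the genes above the filter. Among genes with a mean of 50 FPKM or more, 10.4% were at least 2-fold lower in SMA MNs. Sparc lies on chromosome 11 from 55208000 to 55233603, and its neighbour Atox1 was at 116 FPKM in control MNs and 113 FPKM in SMA MNs.

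Ttr encodes transthyretin, a carrier of thyroid hormone and of the retinol-binding protein, which visceral endoderm, liver and choroid plexus secrete. It was at 0.841 FPKM in control MNs and 1.19 FPKM in SMA MNs, a log2 ratio of 0.50. The table places Ttr in a span of 116258 bases on chromosome 18 (20716568 to 20832825) together with Dsg2, a desmosomal cadherin at 6.99 and 19.1 FPKM. The limit on overlapping genes given for Gata6 applies to this span too. Afp encodes alpha-fetoprotein, the main plasma protein of the fetus, and was at 0.406 FPKM in control MNs and 0.832 FPKM in SMA MNs. Both carriers were near or under the filter, so their ratios rest on low levels. Afp lies on chromosome 5 from 90919740 to 90937933, between its relatives Alb, which was listed at 0 FPKM in control MNs and had 0.0179 FPKM in SMA MNs, and Afm, which had 0.566 and 0.212 FPKM.

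Of 9 genes of the albumin family and other carriers, 4 passed the filter, 2 of these were at least 2-fold lower (1 relative to the median gene), beside 22.4% of all genes (16.5%), and none was 2-fold higher. Rbp4, the retinol carrier that binds transthyretin, was at 24.1 FPKM in control MNs and 10.6 FPKM in SMA MNs, and its receptor Stra6 was at 26.6 and 9.88 FPKM. Trf, the iron carrier transferrin, was at 45.6 and 28.4 FPKM in an entry shared with Srprb. Gc, the vitamin D carrier, was at 2.45 and 3.69 FPKM.

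Relatives of Sparc and basement membrane genes had ratios below 0 at 13 of 15 above the filter, beside 65.9% of all genes. Of the 15, 7 were at least 2-fold lower, beside 22.4% of all genes, and the count was the same relative to the median gene (16.5% of all genes), and none was 2-fold higher, with a median log2 ratio of -0.65. Sparcl1, the nearest relative of Sparc and a product of glia, had the lowest ratio at -4.59, with 44.1 FPKM in control MNs and 1.83 FPKM in SMA MNs. Fstl1, another member of the family, was at 206 and 79.3 FPKM. The laminin chains Lamc1 (168 and 136 FPKM, status FAIL) and Lamb1 (160 and 115 FPKM) were not past the limit, and Nid2, a nidogen of basement membranes, had the highest ratio at 0.64.

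The wider endoderm lists were set beside the markers by the same count. Each count below is to be read against all genes, of which 6.83% were at least 2-fold higher and 22.4% at least 2-fold lower (10.4% and 16.5% relative to the median gene). None of 11 further primitive endoderm genes above the filter was past 2-fold in either direction, with a median log2 ratio of -0.48, and 1 (Fgfr2) was past it relative to the median gene. The collagen chaperone Serpinh1 was at 392 FPKM in control MNs and 234 FPKM in SMA MNs, Fgfr2 at 158 and 262 FPKM in an entry shared with Ctbp2, Srgn at 71.8 and 46.8 FPKM and Bmp2 at 2.25 and 1.14 FPKM. Single genes of that list ran from -0.98 for Bmp2 to 0.73 for Fgfr2.

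Of 16 further visceral endoderm genes above the filter, 2 were at least 2-fold higher and 4 at least 2-fold lower, with a median of -0.33. Relative to the median gene the counts were 3 and 2. Of all genes, 6.83% were that much higher and 22.4% that much lower (10.4% and 16.5% relative to the median gene). The lipid carrier gene Apoe was at 293 FPKM in control MNs and 697 FPKM in SMA MNs with the status FAIL, and Apoc2 was at 0.47 and 1.12 FPKM in an entry shared with Apoc4. Foxa2, a factor of endoderm that also marks the floor plate, was at 55.9 and 18.2 FPKM, Trf had the values given above, and Fgb, a fibrinogen chain, was at 3.07 and 0.799 FPKM. Hnf4a, a main regulator of visceral endoderm and liver, was chosen after its values were seen and was at 0.989 and 1.01 FPKM.

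In the list of anterior visceral endoderm, 6 genes passed the filter, of which 2 were at least 2-fold higher and 2 at least 2-fold lower (3 and 2 relative to the median gene), beside 6.83% and 22.4% of all genes (10.4% and 16.5%). Foxa2 is in this list too. Lefty1, a Nodal antagonist, was at 2.22 FPKM in control MNs and 41.6 FPKM in SMA MNs, and Lhx1, which spinal neurons also express, was at 21.2 and 0.696 FPKM. Otx2 was at 19.0 and 25.8 FPKM with the status FAIL. Cer1, a defining gene of that tissue, was chosen after its values were seen and was listed at 0 FPKM in control MNs and at 0.0397 FPKM in SMA MNs.

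Of 18 further parietal endoderm genes above the filter, 2 were at least 2-fold higher and 7 at least 2-fold lower, with the same counts relative to the median gene (all genes 6.83% and 22.4%, relative 10.4% and 16.5%) and a median of -0.43. The most abundant were Serpinh1, at 392 and 234 FPKM, Lamc1, at 168 and 136 FPKM with the status FAIL, and Lamb1, at 160 and 115 FPKM. Pth1r, the receptor for parathyroid hormone, had the lowest ratio at -1.70 (43.3 and 13.3 FPKM, status FAIL), and Krt8, a keratin of simple epithelia, had the highest at 1.21 (4.0 and 9.26 FPKM). Of the 18, 11 stand in another of the lists as well.

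Of 15 genes of definitive endoderm and gut above the filter, 3 were at least 2-fold higher and 6 at least 2-fold lower (4 and 5 relative to the median gene), beside 6.83% and 22.4% of all genes (10.4% and 16.5%), and the median was 0.03. Epcam, an epithelial adhesion molecule, was at 37 FPKM in control MNs and 84.8 FPKM in SMA MNs with the status FAIL, Krt19 at 42.4 and 67.0 FPKM, and Eomes, a factor of the primitive streak, at 1.35 and 4.44 FPKM. Cxcr4, a chemokine receptor that young neurons also use, was at 105 and 7.24 FPKM, and Onecut1 was at 36.9 and 1.88 FPKM in a shared entry.

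Genes of the signals that act ahead of endoderm formation had a median of 0.33. Of 17, 5 were at least 2-fold higher in SMA MNs and none was 2-fold lower (6 and none relative to the median gene), beside 6.83% and 22.4% of all genes (10.4% and 16.5%). Tdgf1, the Nodal co-receptor, was at 10.2 FPKM in control MNs and 105 FPKM in SMA MNs with the status FAIL, and Nanog, which opposes Gata6 in the blastocyst, was at 41.4 and 236 FPKM. Fgfr2 was at 158 and 262 FPKM in its shared entry. The TGF-beta mediator Smad4 was at 133 and 98.7 FPKM, and the activin receptor Acvr2b had the lowest ratio at -0.97. In this list 4 genes stand in another list as well, and of the 5 that were at least 2-fold higher, Nanog, Tdgf1 and Fgf4 are also in the list of pluripotency markers.

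**Figure D3:**
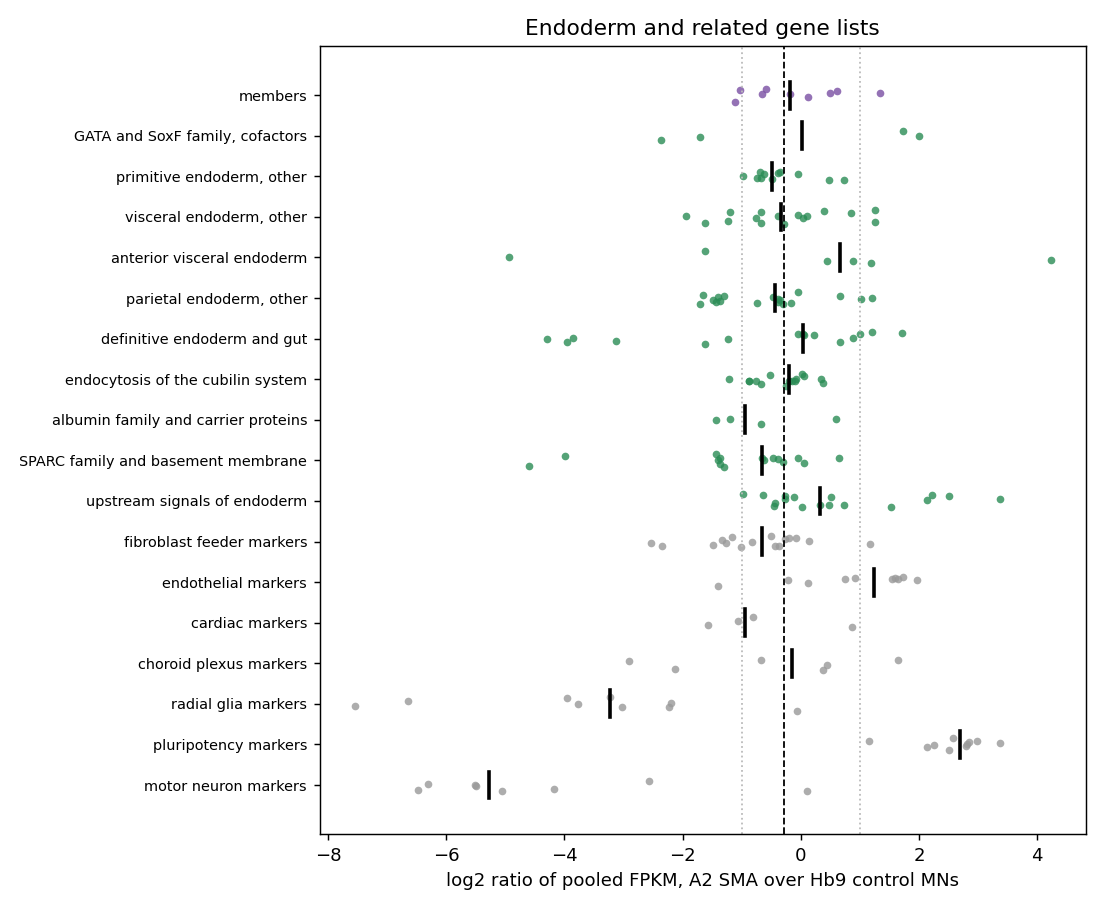
Log2 ratios of the genes above the filter in the set of endoderm markers (purple), related lists (green) and marker lists of other cell types (grey), with a black bar at each median, a dashed line at the median of all genes and dotted lines at 2-fold. The endoderm markers centre at -0.18 and the further primitive endoderm genes at -0.48, whereas pluripotency markers centre at 2.69 and motor neuron markers at -5.27.

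Several endoderm markers are also expressed by other cells that the sorted samples could hold, so marker lists of those cells were read in the same way. Feeder fibroblasts were left to re-attach ahead of differentiation, and the eGFP sort followed it. How far these steps left other cells in the samples was not tested. Of 16 fibroblast markers above the filter, 7 were at least 2-fold lower and 1 was 2-fold higher (4 and 1 relative to the median gene), beside 22.4% lower and 6.83% higher among all genes (16.5% and 10.4%), and the summed level of the 18 genes was 174 FPKM in control MNs and 112 FPKM in SMA MNs, none being at 0. Col1a2, a collagen of fibroblasts, was at 20.1 and 8.93 FPKM, Tagln at 31.8 and 30.1 FPKM, Acta2 at 18.2 and 15.9 FPKM, Postn at 1.88 and 0.326 FPKM and Thy1 at 0.97 and 2.2 FPKM. Of 9 radial glia markers above the filter, 8 were at least 2-fold lower, also relative to the median gene, beside 22.4% and 16.5% of all genes, and the sum over 10 genes was 2280 FPKM in control MNs and 228 FPKM in SMA MNs, none being at 0. Fabp7 was at 553 and 5.52 FPKM, Vim at 1440 and 178 FPKM, Sox9 at 75.4 and 4.87 FPKM, Hes5 at 65.3 and 0.349 FPKM and Pax6 at 22.4 and 21.4 FPKM. The summed levels of both lists were lower in SMA MNs, as was Sparc. Relative to the median gene, 4 of 16 fibroblast markers and 8 of 9 radial glia markers were past 2-fold lower, and Sparc was not. The part of these cells in the level of Sparc was not tested.

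Endothelial cells share Sox7, Sox17 and Sox18. Of 10 endothelial markers above the filter, 5 were at least 2-fold higher and 1 was 2-fold lower (7 and 1 relative to the median gene), beside 6.83% and 22.4% of all genes (10.4% and 16.5%), and the sum over 11 genes was 112 FPKM in control MNs and 173 FPKM in SMA MNs, none being at 0. Pecam1, which mESCs also express, was at 21.8 and 68.7 FPKM, Egfl7 at 76.9 and 83.4 FPKM in a shared entry, Esam at 3.75 and 6.29 FPKM, Erg at 0.38 and 1.49 FPKM and Kdr at 1.36 and 0.513 FPKM. Sox7 (log2 ratio 0.13) and Sox18 (1.73), which is itself on the list, were above 0 and Sox17 was below 0, and the part of endothelial cells in the levels of the SoxF genes was not tested.

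Heart cells share Gata4 and Gata6. Only 4 of 9 cardiac markers passed the filter, of which 2 were at least 2-fold lower and none was 2-fold higher (1 and 1 relative to the median gene), beside 22.4% and 6.83% of all genes (16.5% and 10.4%), and the summed level was 28.5 FPKM in control MNs and 33.3 FPKM in SMA MNs. None was at 0. Hand1 was at 14.7 and 26.7 FPKM with the status FAIL, Myl7 at 4.97 and 2.38 FPKM and Actc1 at 5.59 and 1.89 FPKM. The part of such cells in the levels of the GATA genes was not tested.

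Choroid plexus shares Ttr. Of its 10 other markers 6 passed the filter, of which 1 was at least 2-fold higher and 2 were 2-fold lower, also relative to the median gene, beside 6.83% and 22.4% of all genes (10.4% and 16.5%), and the sum was 111 FPKM in control MNs and 144 FPKM in SMA MNs. None was at 0. Folr1 was at 66.1 and 85.8 FPKM, Otx2 at 19.0 and 25.8 FPKM with the status FAIL, the transporter Slc4a5 at 8.42 and 26.3 FPKM and Enpp2 at 8.93 and 1.19 FPKM. The defining markers Kl and Kcnj13, chosen after their values were seen, were under 1 FPKM in both genotypes, at 0.0853 and 0.103 FPKM and at 0.569 and 0.658 FPKM. The part of such cells in the level of Ttr was not tested. The summed level of the pluripotency markers was 293 FPKM in control MNs and 1920 FPKM in SMA MNs and that of the MN markers was 268 and 53.5 FPKM, with no gene of either list at 0. Mnx1, which encodes Hb9, made up 41.2 FPKM of the MN sum in control MNs and 44.2 FPKM in SMA MNs. The part of undifferentiated cells in the levels of Amn and Cubn was not tested.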

How the data were processed

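RNA from 3 samples per genotype was sequenced. Per the paper's methods and the labels, the authors ran FastQC 0.10.1 and cutadapt on the reads, aligned these to NCBI m37 and its Ensembl annotation using TopHat 2.04, and then used Cufflinks and Cuffdiff, whose versions are not given in the sources used here. The deposited gene table holds FPKM, 1 value per genotype. Its 41945 entries include 4684 without a symbol. The table also holds the authors' log2 fold changes, test statistics, p and q values, which were not used. The status field was read only to mark entries called FAIL.

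Symbols were split at commas and the entry with the highest FPKM was kept. Locus starts were converted to count from 1. Log2 ratios had no pseudocount. The filter was at least 1 FPKM in either genotype and above 0 FPKM in both, and the limit was 2-fold. Each entry was counted once in the background. Tables were read with Python 3.11.15, pandas 2.3.3 and numpy 2.4.6, figures were drawn with matplotlib 3.10.9, and the counting was tested on simulated data.

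The 10 genes and the 17 further lists were chosen with earlier results of these data known. The genes named in each further list are the 3 with the highest mean FPKM and those with the highest and the lowest ratio, a gene of several lists having its values given at least once, with others marked as chosen after their values were seen. Alternatives were pseudocounts, filters, summed entries, scalings, leaving out FAIL or shared entries, and a 4-fold limit.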

Additional observations from a re-analysis of the deposited data

How the results depend on the processing

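No paired analysis was possible because the table gives 1 pooled value per genotype, and no replicate could be left out for the same reason. The count of 1 endoderm marker at least 2-fold higher became 2 without the FPKM filter, which lets in Afp, and 0 at a 4-fold limit. The count of 2 lower became 1 with a pseudocount of 1 FPKM, 0 when ratios were centred on the median gene, 0 when scaled to the upper quartile and 0 at a 4-fold limit. The median log2 ratio of -0.18 was -0.03 without the FPKM filter, -0.59 with a filter of 5 FPKM, 0.11 centred on the median gene, 0.11 scaled to the upper quartile, -0.24 scaled to equal FPKM sums and -0.03 with the status FAIL left out. Summing the entries of a symbol and leaving out shared entries could not move these values, since each marker has 1 entry that it shares with no other symbol. A pseudocount of 0.1 FPKM moved none of them, and a pseudocount of 1 FPKM left the median as it was. Dab2 changed sign when centred on the median gene (0.11) and when scaled to the upper quartile (0.11), and no marker past 2-fold did under any of these alternatives. With no depth per value, the precision of levels near 1 FPKM is unknown.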

Other observations

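The region beside Sox17 held transcripts that the annotation does not name, an observation made after the values were seen. Within 50 kb of Sox17, 11 entries without a gene symbol lie on chromosome 1 between 4513092 and 4516659 of NCBI m37, starting 26598 bases past the higher coordinate of the Sox17 locus. They were 15.8 to 881 FPKM in control MNs and 65.1 to 2890 FPKM in SMA MNs. All 11 were at least 2-fold higher in SMA MNs, with log2 ratios from 1.02 to 2.27 and a median of 1.58, whereas Sox17 was at -1.11. Of 4289 entries without a symbol above the filter, 18.6% were at least 2-fold higher. The 11 entries are 76 to 289 bases long and lie side by side, so they are not independent of each other, and FPKM divides by length, so that few fragments give a short entry a high value. Of the other 9 markers, Gata6 and Ttr had 1 and 2 entries without a symbol within 50 kb, each with a ratio below 0, and the remaining markers had none.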
